A study of Mus musculus with 6 samples.

Results

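The core autophagy genes described here are 39 mouse genes that build the autophagosome and select what it takes up. They were chosen by name from the 30281 gene symbols of the table. All 39 were found, and they fall into 5 genes of initiation, 13 of nucleation, 16 of conjugation and 5 cargo receptors. The 6 RNA-Seq libraries, 1 per condition, came from 4 cell lines. Mouse embryonic fibroblasts (MEFs) were *Tsc2+/+* p53-/- or *Tsc2-/-* p53-/-, with no treatment given. MKOC and TJ cells are mouse kidney epithelial lines labelled *Tsc2*-null, and TJ cells are tumor-derived, from a secondary tumor in C57BL6 mice. Each kidney line was left untreated or given 100 nM rapamycin for 18 hours, and the treatment took place without serum, in DMEM with bovine serum albumin. By the labels, loss of p53 is shared by both MEF lines and loss of *Tsc2* by all 4 kidney libraries, so none of them compares *Tsc2* states in kidney cells.

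Autophagy encloses cytoplasm in a double membrane and delivers it to the lysosome for breakdown. The ULK kinase complex starts the process, a lipid kinase complex marks the growing membrane with PI3P, and a ubiquitin-like conjugation system attaches LC3 and GABARAP proteins to that membrane, where cargo receptors bind them. The kinase complex mTORC1, which *Tsc2* restrains and rapamycin inhibits, phosphorylates and holds back ULK1 and ATG13 at the protein level when nutrients are plentiful. RNA levels give the supply of transcripts and do not measure the flow of material through the pathway.

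Estimated counts per library were between 22887020 and 37505004. *Tsc2* RNA was at 22.6 TPM (a measure of transcript abundance that corrects for transcript length and depth) in *Tsc2+/+* MEFs and 10.5 TPM in the library labelled *Tsc2-/-*. The kidney libraries labelled *Tsc2*-null had 44.0 to 49.1 TPM untreated and 19.1 to 19.5 TPM with rapamycin. *Trp53* RNA was also present in both MEF libraries labelled p53-/-, at 26.3 and 28.5 TPM. The genotypes given above and below are therefore those of the labels. Of 9 epithelial markers, 6 reached 1 TPM in each kidney library, while *Epcam* was at or below 0.0268 TPM, *Krt19* was at or below 0.800 TPM and *Cldn7* was listed at 0, and 5 of 6 kidney lineage markers did so, with *Lhx1* listed at 0. Fibroblast markers reaching 1 TPM numbered 8 of 10 in *Tsc2+/+* MEFs and 9 in *Tsc2-/-* MEFs, against 1 or 2 in the kidney libraries. These are bulk libraries, in which fewer cells of a type and less RNA per cell cannot be told apart.

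All 39 genes were expressed in every library, and the lowest estimated count was 56.7, for *Atg10* in MKOC cells given rapamycin. Mean levels ran from 3.84 TPM (*Atg10*) to 946 TPM (*Sqstm1*, which encodes the cargo receptor p62). *Atg4c* and *Atg10* stayed under 10 TPM in every library, and 5 genes (*Becn1*, *Vmp1*, *Map1lc3b*, *Gabarap* and *Sqstm1*) stayed over 100 TPM. The highest library was *Tsc2-/-* MEFs for 11 genes, a rapamycin library for 12, an untreated kidney library for 9 and *Tsc2+/+* MEFs for 7. The shares over all genes were not computed. The median gene was itself 1.37-fold higher in *Tsc2-/-* than in *Tsc2+/+* MEFs, so these counts only describe the levels.

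**Figure D1:**
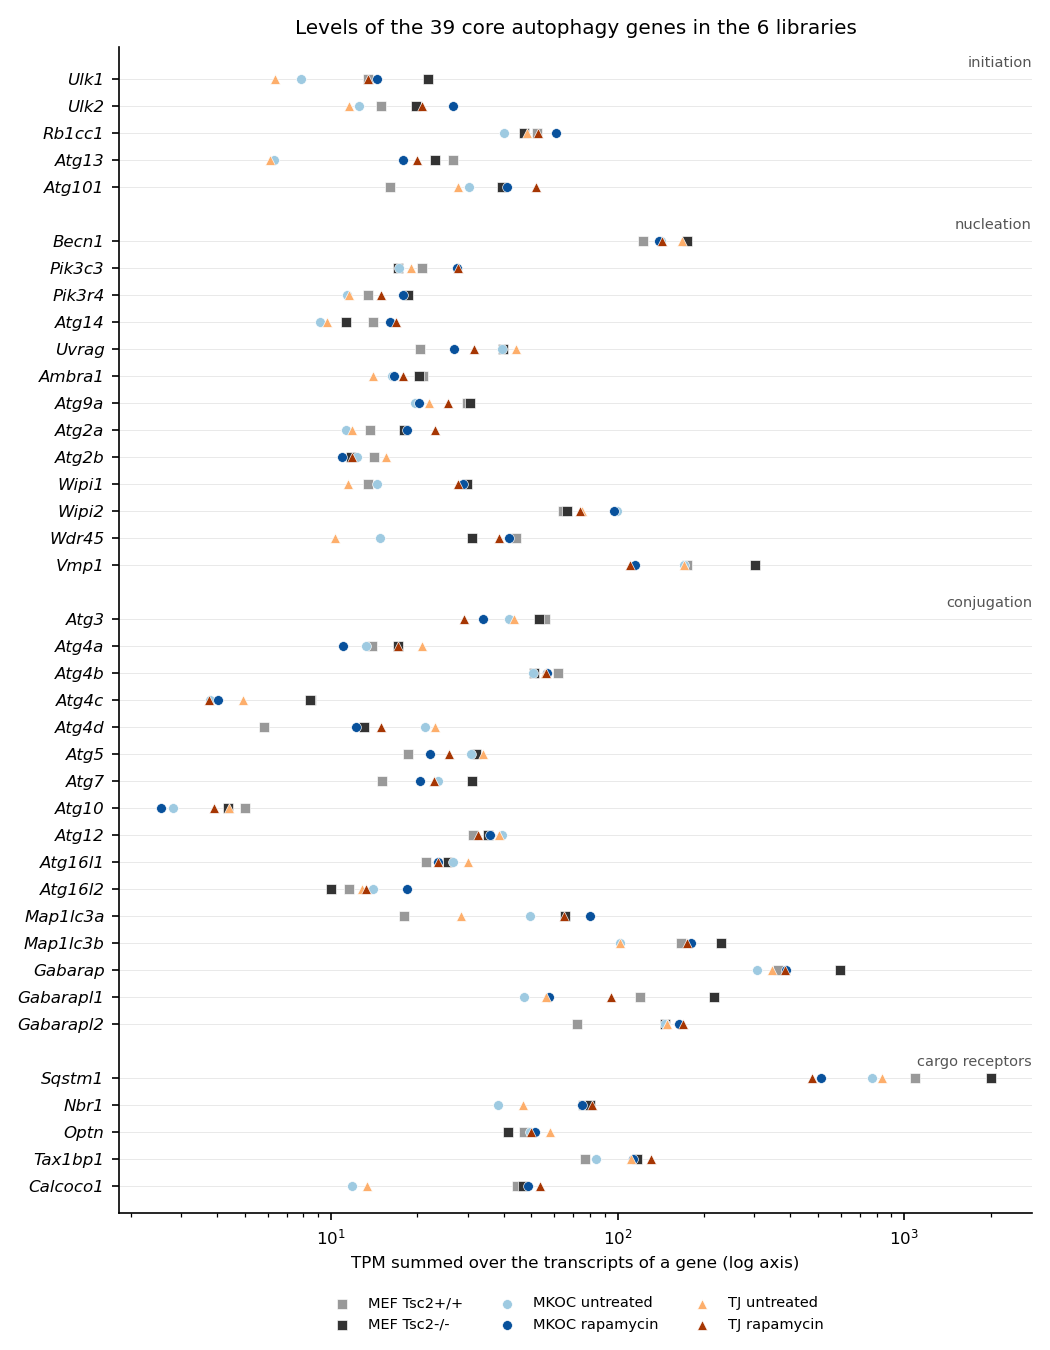
Levels of the 39 genes by step, as TPM per gene on a log axis, with 1 symbol per library. *Sqstm1* lies farthest to the right in every library (476 to 1998 TPM), and the untreated kidney libraries lie left of the other 4 for *Calcoco1*, *Wdr45* and *Atg13*.

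Within the initiation genes, *Rb1cc1*, the scaffold FIP200 of the ULK complex, had the highest mean level and *Ulk1*, its kinase, the lowest. Of the 16 transcripts of *Rb1cc1*, 7 reached 1 TPM, and the one with most counts held between 43.0% and 46.6% in all 6 libraries. *Vmp1*, an endoplasmic reticulum membrane protein that supports membrane growth, and *Atg2b*, a lipid transfer protein, were the highest and lowest nucleation genes, with means of 173 and 12.7 TPM. In the conjugation group the extremes were *Gabarap* (397 TPM) and *Atg10*, the E2-like enzyme that joins ATG12 to ATG5 (3.84 TPM). The cargo receptors ranged from *Sqstm1* to *Calcoco1*, whose mean was 36.4 TPM. For *Atg10* the libraries of a line did not separate by treatment, with 2.80 and 2.54 TPM in MKOC cells and 4.41 and 3.92 TPM in TJ cells, and the 95% counting intervals of each pair overlapped. In the MEFs its level was 4.99 TPM (*Tsc2+/+*) and 4.36 TPM (*Tsc2-/-*).

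The first comparison asks how rapamycin changed these genes in the kidney lines. In a quasi-likelihood test by edgeR that took the cell line into the model, 17 of the 39 genes were higher and 6 lower at an adjusted p under 0.05, and 16 did not pass. Over all 12952 genes tested, 17.5% were higher and 17.4% lower. The median log2 change was 0.18 over the 39 genes and 0.015 over all genes tested. All 5 initiation genes rose, 6 of 13 nucleation genes rose and 2 fell, 3 of 16 conjugation genes rose and 3 fell, and 3 of 5 cargo receptors rose and 1 fell. *Rb1cc1* was not called with limma on log2 TPM or with the most counted transcript alone, which left 4 of 5 initiation genes higher, and *Pik3r4* was not called with limma. *Gabarapl1* lost its call with the most counted transcript, and *Tax1bp1* with that and with DESeq2. A change of at least 2-fold was reached by 4 of the called genes, *Calcoco1*, *Wdr45*, *Atg13* and *Wipi1*, all of them higher. The share of all genes that were called and passed 2-fold was not computed.

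**Figure D2:**
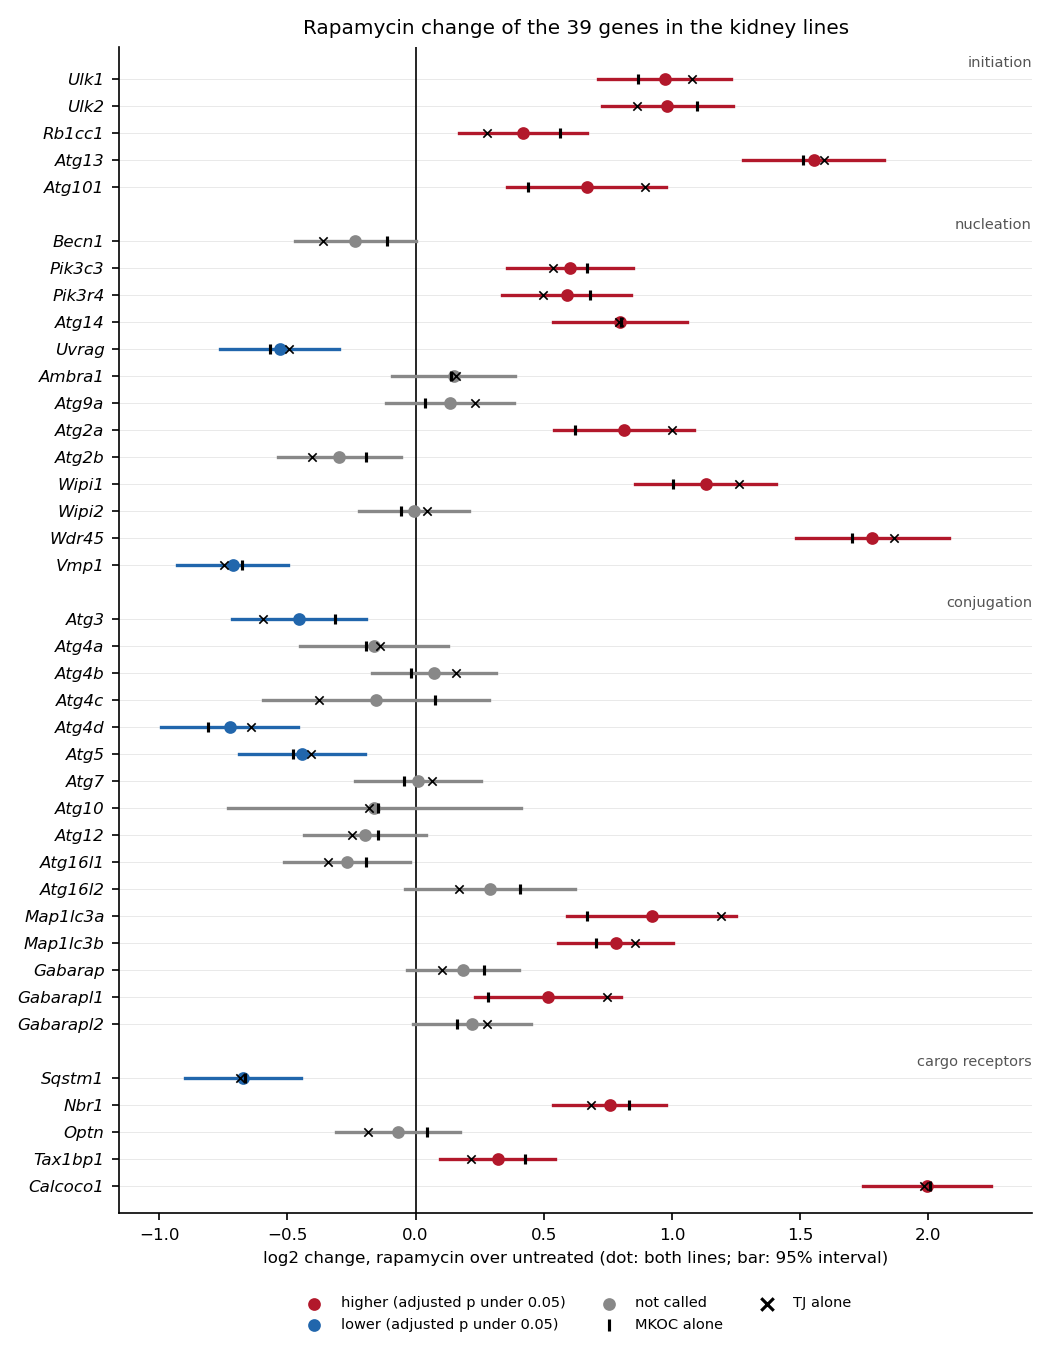
Log2 change with rapamycin in the kidney lines for each gene, with the 95% interval of the fit as a bar and the change in MKOC and TJ cells alone as marks. The 5 initiation genes all lie right of 0, from 0.42 to 1.55, whereas of the 11 conjugation enzymes and proteases (*Atg3* to *Atg16l2*) none was called higher and *Atg3*, *Atg4d* and *Atg5* were called lower.

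The lines are the replicates, with 1 library per line and treatment, so the p-values measure the spread between these 4 libraries. The change had the same sign in both lines for 34 of the 39 genes, including all 23 that were called, and in those 23 the treated and untreated TPM values did not overlap, which held for 91.4% of all genes called and 58.6% of all genes tested. Without the cell line in the model, 12 genes were higher and 3 lower (1275 of all genes called, against 4526), and 8 lost their call: *Rb1cc1*, *Atg101*, *Map1lc3a*, *Gabarapl1* and *Tax1bp1* among the higher, and *Uvrag*, *Atg3* and *Atg5* among the lower. Leaving out a library, which is possible only without the cell line, gave 8 higher and 1 lower without treated MKOC cells (613 of all genes called), 7 and 0 without treated TJ cells (531 called), 3 and 0 without untreated MKOC cells (96 called), and 0 and 0 without untreated TJ cells, where no gene of the whole table was called. Among the 23 genes, leaving out 1 library moved the log2 change by over 1.5 times for *Map1lc3a* (0.52 without untreated TJ and 1.35 without untreated MKOC cells), *Gabarapl1* (0.15 without treated TJ and 0.86 without treated MKOC cells) and *Tax1bp1* (0.12 without untreated MKOC and 0.52 without untreated TJ cells). Transcripts under 300 bases held 4.09% of TPM in untreated and 7.31% in treated MKOC cells, and 5.69% and 7.998% in TJ cells. With those transcripts left out, 17 genes were again higher and 6 lower. Summed levels of epithelial markers were also higher with rapamycin (979 to 1525 TPM in MKOC cells and 998 to 1669 TPM in TJ cells), and 3 of the 6 tested rose. Fibroblast markers summed to 26.7 and 52.3 TPM in MKOC cells and 7.78 and 13.4 TPM in TJ cells, untreated and treated. Most of that sum was *Dcn* (25.5 and 50.3, 6.73 and 10.5 TPM), and 2 of the 7 tested rose. Mesothelial markers summed to 80.3 and 151 TPM in MKOC cells and 70.3 and 98.5 TPM in TJ cells, and 1 of the 2 tested, *Msln*, rose. The part of the short transcripts and of these markers in the results was not tested.

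Among the initiation genes, *Atg13*, which encodes the subunit that links the ULK kinases to FIP200, changed most. It had 6.33 TPM in untreated MKOC cells and 6.13 TPM in untreated TJ cells, against 17.8 and 19.95 TPM with rapamycin, and 26.7 and 23.1 TPM in *Tsc2+/+* and *Tsc2-/-* MEFs. The rise was 2.93-fold (log2 change 1.55, standard error 0.12, adjusted p = 2.31e-05). Both treated libraries lay well above both untreated ones and below both MEF libraries.

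The kinase *Ulk1* had 7.87 TPM in MKOC and 6.36 TPM in TJ cells untreated, 14.4 and 13.5 TPM with rapamycin, and 13.4 TPM in *Tsc2+/+* and 21.8 TPM in *Tsc2-/-* MEFs. Its paralog *Ulk2* had 12.5 and 11.5 TPM untreated, 26.5 and 20.8 TPM treated, and 14.9 and 19.8 TPM in *Tsc2+/+* and *Tsc2-/-* MEFs. The rise was 1.96-fold for *Ulk1* (log2 change 0.97, standard error 0.12, adjusted p = 0.000244) and 1.98-fold for *Ulk2* (log2 change 0.98, standard error 0.12, adjusted p = 0.000211). The scaffold *Rb1cc1* had 40.1 and 48.2 TPM untreated, 61.1 and 52.7 TPM treated, and 52.5 and 47.1 TPM in *Tsc2+/+* and *Tsc2-/-* MEFs. Its rise was the smallest of the 5 (log2 change 0.42, standard error 0.11, adjusted p = 0.0156), at 0.56 in MKOC cells and 0.28 in TJ cells. *Atg101*, which stabilizes ATG13, rose by a log2 change of 0.67. Summed over the complex, TPM was 97.1 and 100.1 in untreated MKOC and TJ cells and 161 and 159 with rapamycin. *Atg13* went from 6.52% to 11.1% of that sum in MKOC cells and from 6.13% to 12.6% in TJ cells.

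The nucleation genes divided. Of the lipid kinase complex, the catalytic subunit *Pik3c3* (VPS34), its regulatory subunit *Pik3r4* and *Atg14*, the subunit that directs the kinase to autophagosome formation, rose by log2 changes of 0.60, 0.59 and 0.80. *Uvrag*, which takes the place of ATG14 in a second form of the complex that acts at endosomes, fell. It had 39.4 TPM in MKOC and 44.1 TPM in TJ cells untreated, 26.8 and 31.5 TPM treated, and 20.4 and 39.8 TPM in *Tsc2+/+* and *Tsc2-/-* MEFs. Its log2 change was -0.53 (standard error 0.10, adjusted p = 0.00353), with no overlap between treated and untreated kidney libraries. *Becn1*, the subunit common to both forms, was not called (log2 change -0.24, 95% interval -0.47 to 0.0010), nor was its partner *Ambra1* (0.15, interval -0.092 to 0.39).

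Among the proteins that supply membrane or bind PI3P, *Wdr45* (WIPI4) and *Wipi1* changed most. *Wdr45* had 14.8 TPM in untreated MKOC and 10.3 TPM in untreated TJ cells, 41.9 and 38.5 TPM with rapamycin, and 44.2 and 30.9 TPM in *Tsc2+/+* and *Tsc2-/-* MEFs. The rise was 3.44-fold (log2 change 1.78, standard error 0.13, adjusted p = 1.84e-05). The treated kidney libraries fell between the MEF libraries, and the untreated ones lay below both.

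*Wipi1* had 14.5 and 11.5 TPM untreated, 28.8 and 27.7 TPM treated, and 13.4 and 29.7 TPM in *Tsc2+/+* and *Tsc2-/-* MEFs. Its rise was 2.19-fold (log2 change 1.13, standard error 0.12, adjusted p = 0.000146). *Wipi2*, the family member that recruits ATG16L1, was not called, with a log2 change of -0.0075 and a 95% interval of -0.22 to 0.21. The intervals of *Wdr45* (1.48 to 2.08) and *Wipi1* (0.86 to 1.41) lay above that of *Wipi2*, and the difference between the genes was not tested.

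Of the lipid transfer proteins, only *Atg2a* was called. It had 11.3 and 11.8 TPM untreated, 18.4 and 23.1 TPM treated, and 13.6 and 18.0 TPM in *Tsc2+/+* and *Tsc2-/-* MEFs, a rise of 1.76-fold (log2 change 0.81, standard error 0.12, adjusted p = 0.000853). Its paralog *Atg2b* had 12.3 and 15.5 TPM untreated, 10.9 and 11.8 TPM treated, and 14.2 and 11.7 TPM in *Tsc2+/+* and *Tsc2-/-* MEFs. The log2 change of *Atg2b* was -0.30 (95% interval -0.54 to -0.057), which did not pass (adjusted p = 0.0555), and treated and untreated libraries did not overlap. *Atg9a*, the scramblase of the vesicles that seed the membrane, was not called either (0.14, interval -0.11 to 0.39).

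Summed over its transcripts, *Vmp1* fell in both lines. It had 171 TPM in untreated MKOC and 170.3 TPM in untreated TJ cells, 115 and 110.4 TPM with rapamycin, and 174 and 301 TPM in *Tsc2+/+* and *Tsc2-/-* MEFs. The level was 1.64-fold lower (log2 change -0.71, standard error 0.097, adjusted p = 0.000496), and the treated libraries were the lowest of the 6. The most counted transcript fell from 81.6 to 45.6 TPM in MKOC cells and from 87.0 to 47.2 TPM in TJ cells. A transcript of 749 bases also fell in both lines. One of 931 bases rose, from 14.3 to 34.1 TPM in MKOC cells and from 8.61 to 27.3 TPM in TJ cells.

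**Figure D3:**
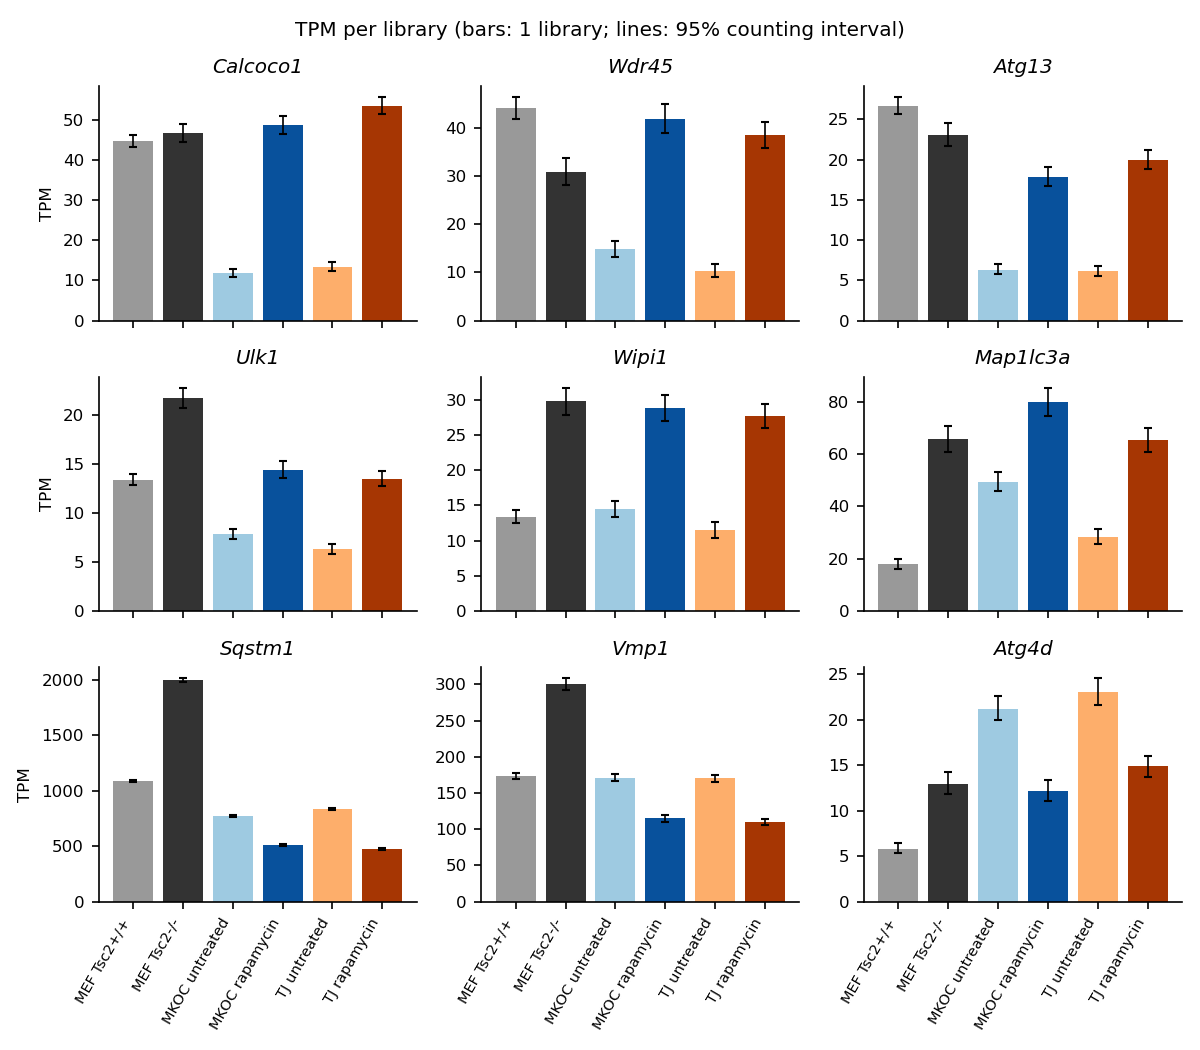
TPM in each of the 6 libraries for 9 genes, with axes from 0 and 95% counting intervals as lines. In *Calcoco1* and *Wdr45* both treated kidney libraries stand near the MEF libraries, and in *Ulk1* near *Tsc2+/+* but below *Tsc2-/-* MEFs. In these genes both untreated kidney libraries stand below the MEF libraries. In *Sqstm1*, *Vmp1* and *Atg4d* the treated kidney libraries stand below the untreated ones.

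In the conjugation group, none of the 11 enzymes and proteases was called higher. *Atg3*, the E2-like enzyme that transfers LC3 to the lipid, had 41.9 and 43.6 TPM in untreated MKOC and TJ cells, 33.9 and 29.0 TPM treated, and 55.8 and 53.2 TPM in *Tsc2+/+* and *Tsc2-/-* MEFs. Its log2 change was -0.46 (standard error 0.12, adjusted p = 0.0133). *Atg5*, which joins ATG12 and ATG16L1 in the complex that directs LC3 to the membrane, had 30.7 and 34.0 TPM untreated, 22.2 and 25.7 TPM treated, and 18.6 and 32.1 TPM in *Tsc2+/+* and *Tsc2-/-* MEFs, with a log2 change of -0.44 (standard error 0.11, adjusted p = 0.0112). In both genes the treated libraries lay below the untreated ones.

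Of the proteases that trim LC3 and GABARAP proteins, *Atg4d* was called. It had 21.2 and 23.1 TPM untreated, 12.2 and 14.9 TPM treated, and 5.84 and 13.0 TPM in *Tsc2+/+* and *Tsc2-/-* MEFs. It was 1.65-fold lower with rapamycin (log2 change -0.73, standard error 0.12, adjusted p = 0.00148). *Atg4a*, *Atg4b* and *Atg4c* were not called, with log2 changes of -0.16, 0.072 and -0.15, and *Atg4b* had the smallest ratio of highest to lowest library of all 39 genes (50.8 to 61.8 TPM, 1.22-fold). The remaining members, *Atg7*, *Atg10*, *Atg12*, *Atg16l1* and *Atg16l2*, were not called, with log2 changes from -0.27 to 0.29.

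Of the substrates of this machinery, the 5 LC3 and GABARAP genes, 3 rose and 2 were not called. *Map1lc3a* had 49.4 TPM in untreated MKOC and 28.4 TPM in untreated TJ cells, 79.7 and 65.2 TPM with rapamycin, and 17.9 and 65.7 TPM in *Tsc2+/+* and *Tsc2-/-* MEFs. The rise was 1.89-fold (log2 change 0.92, standard error 0.15, adjusted p = 0.00120). *Map1lc3a* also had the widest gap between the lines, at a log2 change of 0.67 for MKOC and 1.19 for TJ.

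*Map1lc3b*, the form most used as an autophagosome marker, had 102.0 and 101.6 TPM untreated, 180.3 and 175 TPM treated, and 167 and 229 TPM in *Tsc2+/+* and *Tsc2-/-* MEFs, a log2 change of 0.78. *Gabarapl1* rose by 0.52, with 0.28 in MKOC cells and 0.75 in TJ cells. *Gabarap*, the most abundant of the 5, had 306 and 345 TPM untreated, 385 and 382 TPM treated, and 364 and 597 TPM in *Tsc2+/+* and *Tsc2-/-* MEFs. Its log2 change of 0.18 (95% interval -0.034 to 0.40) was not called, nor was that of *Gabarapl2* (0.22). Together the 5 genes summed to 651 and 680.2 TPM untreated and 866 and 886 TPM treated, and *Map1lc3b* went from 15.7% to 20.8% of that sum in MKOC cells and from 14.9% to 19.7% in TJ cells.

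Of the cargo receptors, which tether ubiquitinated proteins or organelles to LC3 and GABARAP, *Calcoco1* had the largest change of all 39 genes. This gene (chr15:102706777-102722178, GRCm38) encodes a receptor for the endoplasmic reticulum and the Golgi. It had 11.8 TPM in untreated MKOC and 13.4 TPM in untreated TJ cells, 48.6 and 53.4 TPM with rapamycin, and 44.6 and 46.6 TPM in *Tsc2+/+* and *Tsc2-/-* MEFs. The rise was 3.99-fold (log2 change 1.99, standard error 0.11, adjusted p = 5.03e-06), at 2.01 in MKOC cells and 1.98 in TJ cells. Only the untreated kidney libraries were low, and the other 4 lay between 44.6 and 53.4 TPM.

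*Sqstm1* went the other way. It had 768 TPM in untreated MKOC and 833 TPM in untreated TJ cells, 513 and 476 TPM with rapamycin, and 1091 and 1998 TPM in *Tsc2+/+* and *Tsc2-/-* MEFs. The level was 1.596-fold lower (log2 change -0.67, standard error 0.10, adjusted p = 0.000861), and the treated libraries were the lowest of the 6. *Nbr1*, which carries ubiquitinated cargo with p62, and *Tax1bp1*, which also binds ubiquitin, rose by 0.76 and 0.32. *Optn*, a receptor for bacteria and mitochondria, was not called (log2 change -0.070, 95% interval -0.31 to 0.17).

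The makeup of receptor transcripts differed between treated and untreated libraries in both lines, as a description of single libraries. *Sqstm1* made up 80.7% of the summed TPM of the 5 receptors in untreated MKOC cells and 64.0% with rapamycin, and 78.4% and 60.2% in TJ cells. *Calcoco1* went from 1.24% to 6.07% in MKOC cells and from 1.26% to 6.75% in TJ cells, and *Nbr1* from 4.02% to 9.38% and from 4.404% to 10.3%. The receptor sum itself was 952 and 1062 TPM untreated and 801 and 791 TPM treated. Summed over all 39 genes, TPM was 2545 and 2644 in untreated and treated MKOC cells and 2715 and 2642 in TJ cells, so the lines did not share a direction.

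**Figure D4:**
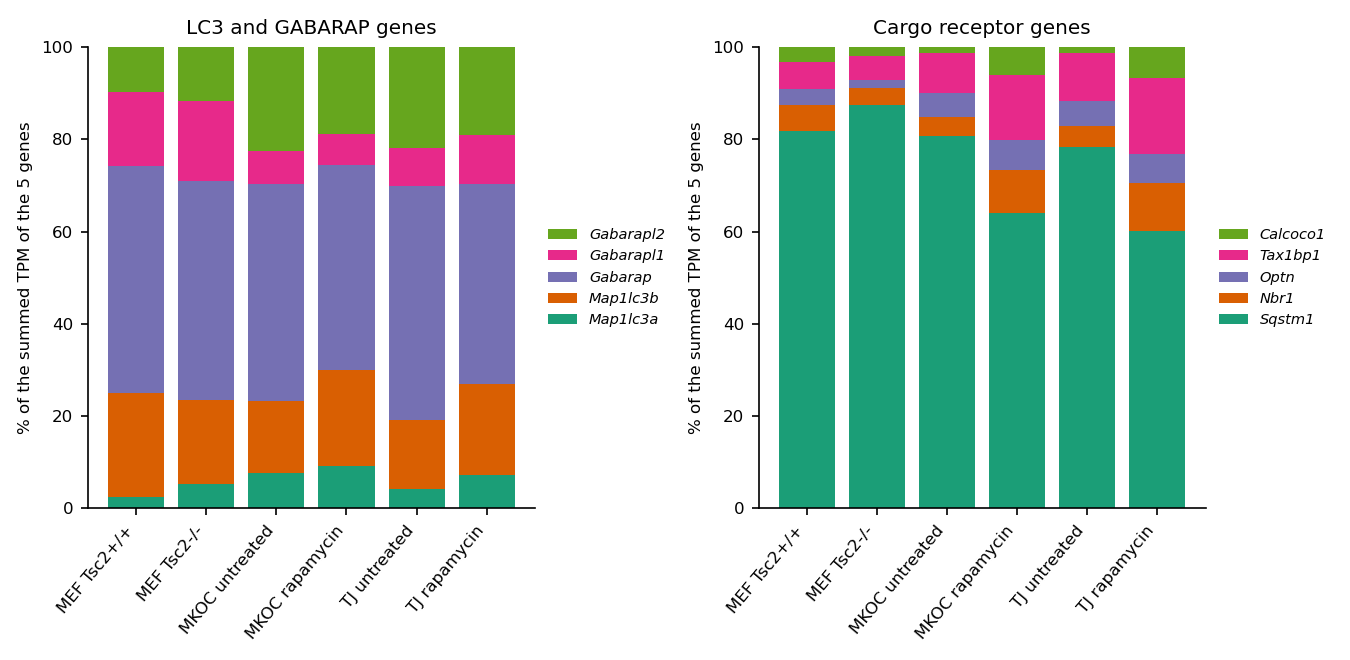
Share of each gene in the summed TPM of the 5 LC3 and GABARAP genes (left) and of the 5 cargo receptor genes (right), by library. The share of *Sqstm1* was 78.4% to 87.5% in the MEF and untreated kidney libraries and 60.2% to 64.0% in the libraries with rapamycin.

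Factors of the MiT/TFE family, which mTORC1 keeps in the cytoplasm, bind E-boxes, and the promoters were searched for that reason. RefSeq promoters (GRCm38.p6, 250 bases before to 50 after the start) were found for 33 of the 39 genes. The E-box CACGTG, which reads the same on both strands, lay in 4 of the 33 (12.1%), against 8.09% of 27025 genes. The holders were *Atg14*, which rose, *Atg3* and *Atg5*, which fell, and *Atg7*, which was not called. The longer form TCACGTGA, which contains the E-box, was found in *Atg3* alone, against 1.12% of all genes, and the amino acid response element TGATGCAA or its reverse complement TTGCATCA in none of the 33, against 1.03%. The 100 bases that precede both the RefSeq start and the annotated gene start are given 5′ to 3′ for *Atg3* and *Atg5*, the called genes with the match in that stretch, with the match in capitals, beside those of *Calcoco1*, which held none of these motifs and was added for the size of its change.
*Calcoco1*, chr15:102722179-102722278, minus strand: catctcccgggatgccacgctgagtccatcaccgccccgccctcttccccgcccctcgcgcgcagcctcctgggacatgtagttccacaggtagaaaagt
*Atg3*, chr16:45158685-45158784, plus strand: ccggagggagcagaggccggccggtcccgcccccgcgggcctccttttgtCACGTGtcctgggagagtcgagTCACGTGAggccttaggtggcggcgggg
*Atg5*, chr10:44268239-44268338, plus strand: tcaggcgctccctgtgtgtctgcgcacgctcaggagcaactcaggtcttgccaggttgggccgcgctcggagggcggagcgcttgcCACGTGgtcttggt

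The E-boxes of *Atg3* lay 94 and 71 bases before its RefSeq start, which is downstream of the end of the stretch shown. The E-box of *Atg5* lay 14 bases before its RefSeq start. Of the 14 matched genes that rose, 1 held an E-box, as did 2 of the 6 that fell and 1 of the 13 that were not called. These counts describe letters in a short window and do not locate a bound factor.

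The second comparison sets the lines against each other. With the treatment in the model of the same 4 libraries, 2 of the 39 genes were higher in TJ than in MKOC cells and 1 was lower, where 5.47% of all genes tested were higher and 3.32% lower. The 2 libraries of a line differ in treatment and come from 1 line, so the p-values measure the spread between these libraries. *Atg4a* had 13.2 and 11.0 TPM in MKOC cells and 20.7 and 17.1 TPM in TJ cells, untreated and treated, with 13.9 and 17.1 TPM in *Tsc2+/+* and *Tsc2-/-* MEFs. It was 1.53-fold higher in TJ cells (log2 difference 0.61, standard error 0.13, adjusted p = 0.0181). *Gabarapl1* was higher in TJ cells by 0.48 (standard error 0.13, adjusted p = 0.0468), from 0.24 untreated and 0.71 treated, with 47.0 and 57.4 TPM in MKOC cells and 56.4 and 95.1 TPM in TJ cells. *Map1lc3a* was lower by 0.55 (standard error 0.15, adjusted p = 0.0459). The calls lay close to the threshold, and none of the 3 passed with DESeq2, with limma or with the most counted transcript alone. Without the treatment in the model, the difference of *Map1lc3a* was -0.48, and with 1 library also left out it ran from -1.2 (treated TJ cells out) to 0.011 (untreated TJ cells out). That of *Gabarapl1* was 0.52, and ran from 0.091 (treated TJ cells out) to 0.86 (untreated TJ cells out).

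The third comparison sets the untreated kidney lines against the MEFs, and it uses the same untreated libraries as the first. Tissue, *Tsc2* and p53 genotype and the origin of the lines cannot be told apart here. In edgeR's test 0 of the 39 genes were higher and 5 lower in the kidney lines, where 4.74% of the 13473 genes tested were higher and 5.2% lower. DESeq2 called 1 gene higher and 11 lower, where it called 14.1% of all genes higher and 15.3% lower. The median log2 difference was -0.43 over the 39 genes and -0.037 over all genes. The 5 lower genes were *Atg13* (log2 difference -2.05, standard error 0.34, adjusted p = 0.0435), *Calcoco1* (-1.97, standard error 0.24, adjusted p = 0.0293), *Gabarapl1* (-1.76, standard error 0.23, adjusted p = 0.0312), *Ulk1* (-1.38, standard error 0.23, adjusted p = 0.0438) and *Map1lc3b* (-1.21, standard error 0.16, adjusted p = 0.0320). *Gabarapl1* stood at 119 TPM in *Tsc2+/+* and 217 TPM in *Tsc2-/-* MEFs, above all 4 kidney libraries.

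By level alone, both untreated kidney libraries lay below both MEF libraries for 18 of the 39 genes, above both for 7 and between or across them for 14, where 27.9% of all genes tested lay below and 35.2% above. In *Atg4d*, the kidney lines had 21.2 and 23.1 TPM against 5.84 and 13.0 TPM in MEFs, yet the log2 difference of 1.20 did not pass (95% interval 0.28 to 2.11, adjusted p = 0.0983). *Wdr45* differed by -1.72 with a wide interval (-3.01 to -0.43, adjusted p = 0.0951). The calls rest on 2 libraries a side, and with limma on log2 TPM *Gabarapl1*, *Ulk1* and *Map1lc3b* lost theirs. Leaving out 1 library leaves 1 library in a group, so the other group alone supplies the spread and the calls cannot be set beside those above. The 5 calls were lost when either kidney library was left out. The log2 difference of *Atg13* then ran from -2.36 (*Tsc2-/-* MEFs out) to -1.61 (*Tsc2+/+* MEFs out), and none of the 5 moved by over 1.5 times.

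The last comparison, the MEFs, has 1 library per genotype and no p-values. Each change is the log2 ratio of TPM with 1 added, less the median over the 12771 genes of at least 1 TPM in either library, because that median was itself 0.45, or 1.37-fold higher in *Tsc2-/-* MEFs. Past 2-fold relative to the median gene, 1 of the 39 genes was higher and 0 lower, where 13.4% of all genes were higher and 10.3% lower. *Map1lc3a*, at 17.9 TPM in *Tsc2+/+* and 65.7 TPM in *Tsc2-/-* MEFs, was the 1 gene, with a relative log2 change of 1.37. Its 95% counting intervals, 16.1 to 19.8 and 60.9 to 70.8 TPM, did not overlap. The median of the 39 relative changes was -0.18, with 16 above 0, 23 below 0 and 21 within 0.5 of the median gene. Without taking off the median, 26 genes had the higher TPM in *Tsc2-/-* MEFs and 5 of them passed 2-fold, where 73.8% of all genes were higher and 25.2% passed 2-fold.

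By step, the relative changes ran from -0.65 (*Atg13*) to 0.79 (*Atg101*) in the initiation genes and from -0.96 (*Wdr45*) to 0.64 (*Wipi1*) in the nucleation genes. The 11 conjugation enzymes and proteases ran from -0.73 (*Atg4b*) to 0.58 (*Atg4d*), and the 5 LC3 and GABARAP genes, none of them below the median gene, had a median of 0.41. The cargo receptors ran from -0.63 (*Optn*) to 0.42 (*Sqstm1*). Mesothelial markers moved with the genotype label: 6 of 6 reached 1 TPM in *Tsc2-/-* MEFs (summed 478 TPM, with *Upk3b* at 154 TPM and *Wt1* at 81.6 TPM) and 1 of 6 in *Tsc2+/+* MEFs (summed 2.66 TPM, with *Upk3b* listed at 0). Epithelial markers reaching 1 TPM numbered 2 of 9 in *Tsc2-/-* MEFs (summed 77.7 TPM, with *Krt19* at 55.6 TPM and *Krt18* at 20.6 TPM) and 0 of 9 in *Tsc2+/+* MEFs (summed 0.205 TPM). In the *Tsc2+/+* library 20.9% of TPM came from transcripts under 300 bases, against 7.12% in *Tsc2-/-* MEFs. With short transcripts left out, 1 gene was again higher and 0 lower, and *Map1lc3a* had a change of 1.36. The part of the mesothelial and epithelial markers in the MEF results was not tested.

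**Figure D5:**
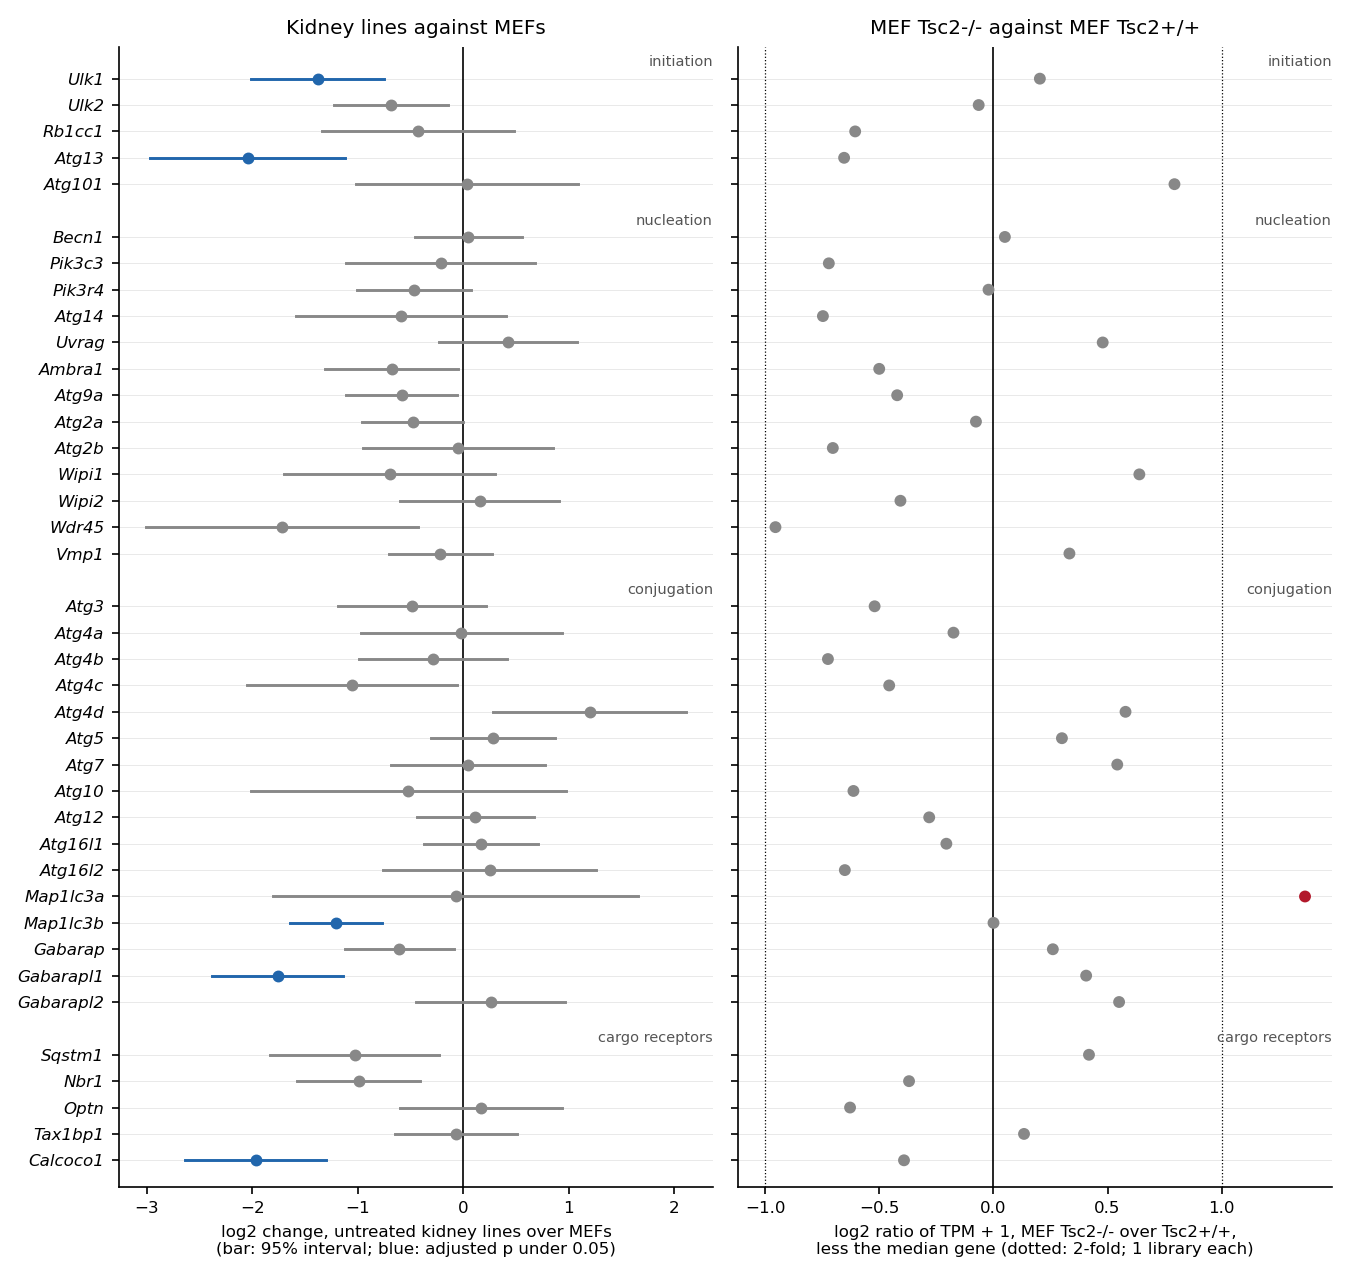
Left, log2 difference of untreated kidney lines from MEFs with its 95% interval, and right, log2 ratio of *Tsc2-/-* over *Tsc2+/+* MEFs relative to the median gene, with dotted lines at 2-fold. On the left *Ulk1*, *Atg13*, *Map1lc3b*, *Gabarapl1* and *Calcoco1* were called lower, and on the right only *Map1lc3a*, at 1.37, lies past 2-fold.

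Other genes that act with the core set were read from the same rapamycin fit, where 17.5% of all genes tested were higher and 17.4% lower. Of 19 other cargo and organelle receptors, 4 rose and 6 fell, with *Ccpg1*, a receptor in the endoplasmic reticulum, at 1.46 and *Wdfy3* (ALFY), a scaffold for aggregates, at 0.83, against *Bnip3*, a mitochondrial receptor induced by hypoxia, at -2.26 and *Stbd1*, a glycogen receptor, at -1.81. Of 18 genes for fusion with lysosomes, 4 rose and 3 fell, with *Inpp5e*, a lipid phosphatase, at 0.75 and *Epg5*, a tether, at -0.45. Of 13 other nucleation partners, 4 rose and 2 fell, with *Zfyve1* (DFCP1), which marks the site of membrane growth, at 0.79 and *Wdr45b* (WIPI3), the closest relative of *Wdr45*, at -0.57. Of 15 upstream kinases and phosphatases tested, 1 rose and 4 fell, with *Mtmr14*, a lipid phosphatase, at 0.77 against *Dapk1*, a kinase linked to cell death, at -2.79 and *Prkaa2*, an AMPK catalytic subunit, at -0.82. *Dapk1* was at low levels, 0.301 and 0.530 TPM untreated and 0.0501 and 0.0753 TPM treated in MKOC and TJ cells. Of 18 transcription factors linked to autophagy genes, 4 rose and 3 fell, with the forkhead factors *Foxo4* at 0.96 and *Foxo3* at 0.62, against the stress-induced *Ddit3* (CHOP) at -2.87, the hypoxia factor *Hif1a* at -1.46 and *Atf4*, which responds to amino acid shortage, at -1.05. The medians of the 5 lists were between -0.095 and 0.13, beside 0.015 over all genes.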

How the data were processed

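The authors trimmed paired-end reads of poly(A)-selected, stranded libraries with Trimmomatic, quantified 88198 transcripts with Kallisto, and deposited estimated counts and TPM per transcript. Their methods name a human reference, whereas the deposited identifiers are those of mouse. A deposited ratio of the MEF libraries was not used. The 39 genes and all lists were chosen with earlier results of these data known.

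Estimated counts and TPM were summed per symbol (1006 transcripts with no symbol, 0.372% to 0.468% of counts, were left out). Counts were rounded, filtered with filterByExpr, TMM-normalized and tested with edgeR 4.0.16 (quasi-likelihood, Benjamini-Hochberg over all genes, threshold 0.05), with DESeq2 1.42.0 and limma 3.58.1 as alternatives (R 4.3.3, Python 3.11.15). The cell line, named in the labels, pairs the libraries (correlation of deviations 0.558 over 12983 genes). Positions and transcripts are from GENCODE M21 (GRCm38), where all 237 transcripts of the 39 genes carry the same symbol. Counting intervals are exact Poisson limits at 95% and cover counting error only, since reads carry no molecular identifiers. Values in every library are given for up to 8 genes per direction and comparison and for the highest and lowest of each step. Of the other lists, up to 3 called genes per direction are named.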

Additional observations from a re-analysis of the deposited data

How the results depend on the processing

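With rapamycin, 14 to 17 of the 39 genes were higher and 6 lower under other normalizations, DESeq2, limma on log2 TPM, no filter, the most counted transcript and transcripts of at least 300 bases. Over all genes tested, 10.2% (most counted transcript) to 19.1% (upper-quartile scaling) were then higher. Lower were 11.2% (most counted transcript) to 17.4% (transcripts of at least 300 bases). The 8 higher genes of largest change and the 6 lower genes kept their direction and call under each of these settings. With no replicate block, that is, without the cell line in the model, 12 were higher in place of 17 and 3 lower in place of 6, and of those 14 genes *Map1lc3a*, *Uvrag*, *Atg3* and *Atg5* lost their call. Leaving out 1 library, without the cell line, gave 8 (treated MKOC left out), 7 (treated TJ), 3 (untreated MKOC) and 0 (untreated TJ) higher, and 1, 0, 0 and 0 lower. For TJ against MKOC, the 2 higher calls became 1 with DESeq2 size factors and 0 with DESeq2, limma, the most counted transcript or no treatment term. The 1 lower call became 0 with those settings and with DESeq2 size factors or upper-quartile scaling, and 2 without a filter. Leaving out 1 library also takes the treatment out of the model, which alone gave 0 and 0, so its own effect on these calls cannot be told apart. The difference of *Map1lc3a* was then 0.0108 without untreated TJ cells. For kidney lines against MEFs, DESeq2 gave 1 higher and 11 lower and limma gave 2 lower, and *Ulk1* lost its call without a filter. Leaving out 1 library gave 0 to 3 higher and 0 to 19 lower. For the MEFs, 5 genes were higher with the median not taken off or taken over all genes and 3 at 1.5-fold, and 1 was lower with a pseudocount of 0.1 TPM, 1 with TMM-scaled CPM and 10 at 1.5-fold, where 24% of all genes were higher and 21% lower. The cause of these shifts was not tested. Over all genes, calls numbered 4526 with rapamycin (1275 without the cell line, 2709 with the most counted transcript), 1139 between lines (630 with DESeq2, 605 with limma, 134 with the most counted transcript, 1753 with no filter) and 1338 between kidney lines and MEFs (3969 with DESeq2). *Atg10*, the gene with the lowest estimated count, had the largest standard error with rapamycin (0.26).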
